A study of Mus musculus with 12 samples.

Results

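The 10 genes described here encode enzymes that break ceramide down, release it from sphingomyelin, convert it to glucosylceramide, or make and split sphingosine 1-phosphate. They were chosen by gene name and not by a threshold on measured values, with earlier results of these data known. Asah1, Asah2, Acer2, Acer3, Smpd1, Smpd2, Ugcg, Sphk1, Sphk2 and Sgpl1 were all present among the 22068 named genes of the liver table. Of these, 9 were among the 11482 genes whose mean over 12 livers reached 0.5 FPKM, and Sphk1 was below that level. FPKM is the number of sequenced fragments scaled to transcript length and library size, so that genes can be compared with each other.

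The livers came from male C57BL/6J mice that were 21 weeks old and had eaten their diet for 16 weeks. There were 3 mice in each of 4 groups, which the study calls representative of a larger number. The ND mice ate a normal diet and the HFD mice a high-fat diet. The CLE mice ate the high-fat diet with 1.5% (w/w) of an ethanol extract of chrysanthemum leaf, and the LU mice ate it with 0.003% (w/w) of luteolin, a flavone of that leaf. The HFD, CLE and LU groups therefore share the high-fat diet, and only the ND group lacks it. Whole liver was sequenced, so fewer cells of a type and less RNA per cell cannot be told apart.

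Ceramide is a fatty acid bound to the long-chain base sphingosine. Ceramidases split it, sphingosine kinases phosphorylate the sphingosine that is released, and sphingosine 1-phosphate lyase splits the phosphate in the only exit from the sphingolipids. Sphingomyelinases return ceramide from the membrane lipid sphingomyelin, and glucosylceramide synthase draws it into the glycosphingolipids. In liver, ceramide is best known for its accumulation in steatosis and for hampering insulin signaling, and sphingosine 1-phosphate leaves hepatocytes in part on the lipoprotein-bound carrier apolipoprotein M.

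The promoters of Acer2, Smpd1, Smpd2 and Ugcg are shown because these genes carry the results below. Acer2 and Smpd1 passed the test in comparisons that include HFD, and Smpd2 and Ugcg passed in both the CLE and the LU comparison with ND. They are RefSeq windows of 300 bases around the annotated start on GRCm38.p6, and capitals mark every match to GGGCGG (GC box), CACGTG (E-box), CCAAT or TATAAA on either strand. No 2 matches overlapped. Acer2 lies on the plus strand at chr4:86874164-86874463, Smpd1 on the plus strand at chr7:105554110-105554409, Smpd2 on the minus strand at chr10:41490291-41490590, and Ugcg on the plus strand at chr4:59189300-59189599. The Ugcg window lies wholly downstream of 59189257, where the most abundant Ugcg transcript in these livers begins.
Acer2: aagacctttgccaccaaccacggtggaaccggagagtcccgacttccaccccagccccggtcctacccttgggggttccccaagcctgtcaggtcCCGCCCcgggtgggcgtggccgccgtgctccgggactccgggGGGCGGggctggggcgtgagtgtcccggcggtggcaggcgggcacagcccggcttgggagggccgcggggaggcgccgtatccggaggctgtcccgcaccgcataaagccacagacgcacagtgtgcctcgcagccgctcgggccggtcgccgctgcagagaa
Smpd1: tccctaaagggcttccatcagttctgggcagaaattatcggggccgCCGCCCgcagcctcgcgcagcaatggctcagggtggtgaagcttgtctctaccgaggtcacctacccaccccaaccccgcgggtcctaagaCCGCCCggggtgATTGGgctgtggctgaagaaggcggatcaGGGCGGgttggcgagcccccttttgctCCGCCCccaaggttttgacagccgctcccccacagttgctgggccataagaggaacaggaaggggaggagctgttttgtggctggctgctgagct
Smpd2: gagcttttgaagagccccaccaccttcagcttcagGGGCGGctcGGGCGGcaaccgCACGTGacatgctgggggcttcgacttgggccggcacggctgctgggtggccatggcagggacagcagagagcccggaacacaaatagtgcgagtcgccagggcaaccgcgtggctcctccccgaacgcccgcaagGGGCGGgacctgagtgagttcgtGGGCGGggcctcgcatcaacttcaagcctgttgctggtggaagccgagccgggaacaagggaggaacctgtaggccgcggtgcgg
Ugcg: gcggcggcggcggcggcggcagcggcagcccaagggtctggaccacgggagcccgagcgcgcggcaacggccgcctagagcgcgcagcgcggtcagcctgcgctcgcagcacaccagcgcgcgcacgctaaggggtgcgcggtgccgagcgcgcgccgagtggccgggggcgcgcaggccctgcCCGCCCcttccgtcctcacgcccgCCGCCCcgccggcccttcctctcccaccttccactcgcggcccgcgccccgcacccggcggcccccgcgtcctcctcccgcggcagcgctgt
All 4 windows are rich in G and C, at 73%, 63%, 67% and 81.3% in the order shown, against a median of 52.7% over 32851 mouse windows of the same length. The GC box occurs 2, 4, 4 and 2 times in them, and 35.7% of all windows hold it. The only E-box, the sequence that clock and other basic helix-loop-helix factors recognize, is in the Smpd2 window, as in 7.15% of all windows. A CCAAT match occurs in the Smpd1 window and in 37.4% of all windows. TATAAA, found in 13.6% of all windows, occurs in none of the 4.

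Of the 10 genes, Sgpl1 had the highest mean level in ND and HFD livers (25.3 and 26.7 FPKM) and Smpd2 in CLE and LU livers (28.2 and 24.9 FPKM). Acer3 had the lowest after Sphk1 (3.44 to 5.24 FPKM). The HFD group stood above the ND group in the ceramidase and sphingomyelinase routes and below it in Ugcg and in Sphk2. The sum over the 4 ceramidases was 26.9 ± 3.99 FPKM (mean ± SD, n = 3 mice) in ND livers, 34.0 ± 1.58 in HFD, 26.6 ± 5.86 in CLE and 27.3 ± 3.06 in LU. The sum over both sphingomyelinases was 28.5 ± 1.48 FPKM in ND, 36.1 ± 2.06 in HFD, 40.1 ± 8.26 in CLE and 38.1 ± 1.50 in LU. The sum over all 10 genes moved little, from 111 ± 3.52 FPKM in ND to 121 ± 5.23 in HFD, 115 ± 7.88 in CLE and 112 ± 7.90 in LU.

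**Figure D1:**
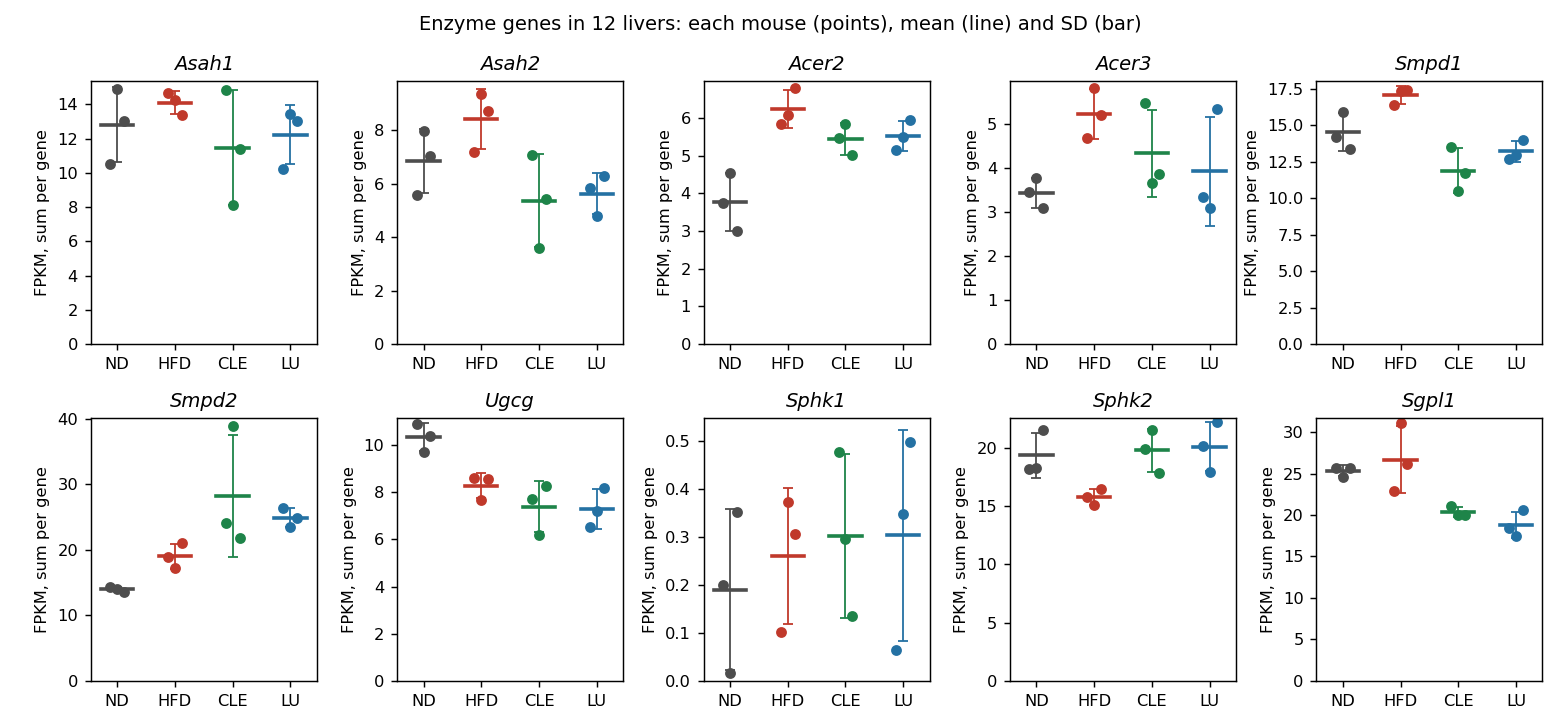
FPKM of each of the 10 genes (vertical axes, each from 0) in the livers of each group; points are mice, horizontal lines are means and bars are SD, n = 3. Smpd2 climbs from 13.99 in ND to 28.2 in CLE, Ugcg steps down from 10.3 in ND to 7.30 in LU, and Sphk1 stays below 0.6 in every liver.

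Groups were compared with limma's moderated test on log2(FPKM + 1), adjusted over all 11482 genes by the Benjamini-Hochberg method, and all fold changes below are on that scale. Between HFD and ND livers, 1 of the 9 tested members passed at an adjusted p of 0.05, against 12.1% of all genes. Between CLE and HFD livers 1 of 9 passed, against 6% of all genes. Between LU and HFD livers none passed in limma while 5 had an unadjusted p under 0.05, against 1.03% and 20.3% of all genes. Against ND livers, 3 of 9 passed in CLE and 4 of 9 in LU, against 27% and 15% of all genes. CLE and LU livers differed in none of the 9, even at an unadjusted p under 0.05, against 0.00871% and 4.4% of all genes. In 6 of 9 members the HFD and ND mice did not overlap, against 36.5% of all genes. The same held for 5 of 9 in CLE against HFD and 5 of 9 in LU against HFD (31.3% and 30% of all genes), and for 4 of 9 in CLE and in LU against ND (42.3% and 41%). No member's CLE and LU mice stood apart without overlap, against 7.08% of all genes. The comparisons with HFD share the HFD mice and those with ND share the ND mice. P-values measure the spread between these mice, and an exact permutation test of 3 against 3 could not go below 0.1.

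The F statistic among the 4 groups was also tested by exact permutation over all 15400 splits of the 12 mice, which has a smallest possible p of 6.49e-05. The exact p was 0.0020 for Smpd2, 0.0027 for both Acer2 and Smpd1, 0.0039 for Sgpl1 and 0.0097 for Ugcg. Sphk2 had an exact p of 0.048, while Asah2, Acer3 and Asah1 had 0.096, 0.15 and 0.56. Adjusted over all genes, the smallest of these exact p-values became 0.053, and none passed, against 1.31% of all genes.

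**Figure D2:**
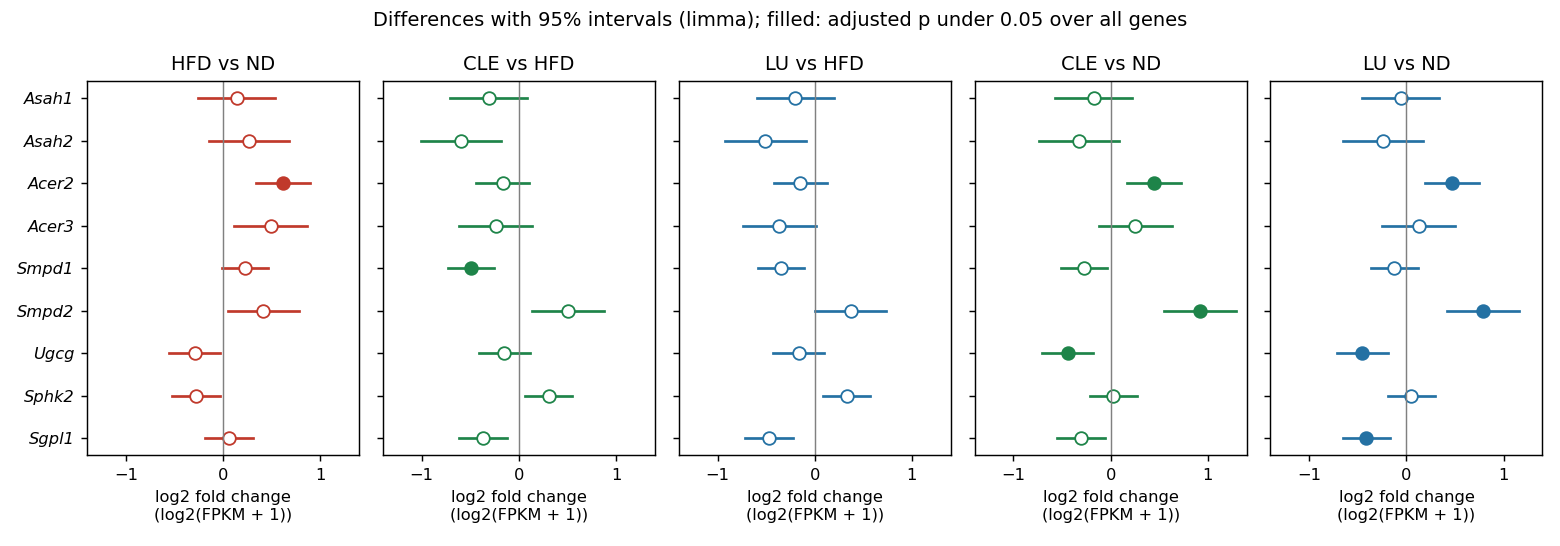
Log2 fold change (horizontal axes, on the log2(FPKM + 1) scale) of the 9 tested genes in 5 comparisons, with 95% intervals from limma; filled points passed an adjusted p of 0.05 over all genes. Filled are Acer2 in HFD against ND, Smpd1 in CLE against HFD, 3 genes in CLE against ND and 4 in LU against ND.

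Acer2, the alkaline ceramidase of the Golgi, was the member that rose between HFD and ND livers. It lies at chr4:86874396-86934822 (GRCm38, plus strand). Its values were 3.74, 4.54 and 3.001 FPKM in ND mice 2, 3 and 4, and 5.84, 6.08 and 6.78 in HFD mice 12, 15 and 18. CLE mice 2, 4 and 11 had 5.47, 5.84 and 5.00 FPKM, and LU mice 2, 3 and 8 had 5.15, 5.49 and 5.95. Every liver on the high-fat diet, with or without a supplement, was above every ND liver. HFD exceeded ND by a log2 fold change of 0.61 ± 0.13 (SE, adjusted p = 0.0086 in limma), and this call held whichever mouse was left out. CLE and LU also exceeded ND, by 0.45 (adjusted p = 0.024) and 0.47 (adjusted p = 0.031), while their differences from HFD were -0.17 (95% interval -0.44 to 0.11) and -0.15 (-0.42 to 0.13). The call against ND was lost for CLE without CLE 4, ND 2 or ND 4 (adjusted p = 0.076, 0.056 and 0.098), and for LU without LU 2, LU 3, LU 8, ND 2 or ND 4 (0.051, 0.076, 0.084, 0.074 and 0.12). Acer2 made up 14.03% ± 2.34 of the ceramidase sum in ND livers, 18.3% ± 1.43 in HFD, 21.2% ± 5.63 in CLE and 20.3% ± 0.79 in LU.

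The higher Acer2 sum in HFD livers included more from transcripts that begin inside the gene. Of its 12 transcripts in the table, 4 are known and 8 were assembled by the authors' pipeline. Transcripts were separated by whether they begin more than 1000 bases downstream of the start of the gene's most abundant known transcript. From the annotated start, Acer2 had 3.07, 3.74 and 2.202 FPKM in the ND mice and 2.97, 4.69 and 2.93 in the HFD mice, and these groups overlapped. From downstream starts it had 0.67, 0.80 and 0.80 FPKM in ND mice and 2.87, 1.39 and 3.85 in HFD mice, which did not overlap. In HFD 15, however, the part from the start was above that of every ND mouse. CLE mice had 2.29, 1.85 and 1.84 FPKM from the start and 3.18, 3.98 and 3.16 from downstream, and LU mice had 1.03, 1.68 and 1.51 from the start and 4.12, 3.81 and 4.43 from downstream. The share from downstream thus averaged 20.7% in ND, 42.9% in HFD, 63.2% in CLE and 74.7% in LU.

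With known transcripts alone, the Acer2 difference between HFD and ND was 0.15 (adjusted p = 0.76) in place of 0.61. The differences from ND then turned downward, to -0.43 in CLE (adjusted p = 0.15) and -0.79 in LU (adjusted p = 0.032). For the most abundant transcript by itself they were -0.00 in HFD, -0.63 in CLE and -0.77 in LU. The rise of Acer2 in HFD livers thus holds for the sum over known and assembled transcripts, and was not found for the known transcripts alone.

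The shift toward downstream starts was not particular to Acer2. Over 5793 genes that have such transcripts, the median share was 12.8% to 13.6% in ND livers, 12.7% to 15.6% in HFD, 18.4% to 29.1% in CLE and 20.5% to 24.2% in LU. CLE 4 had the highest share of the 12 livers, and every CLE and LU liver was above every ND and HFD liver. Its cause, and its part in the values of other members, was not tested.

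**Figure D3:**
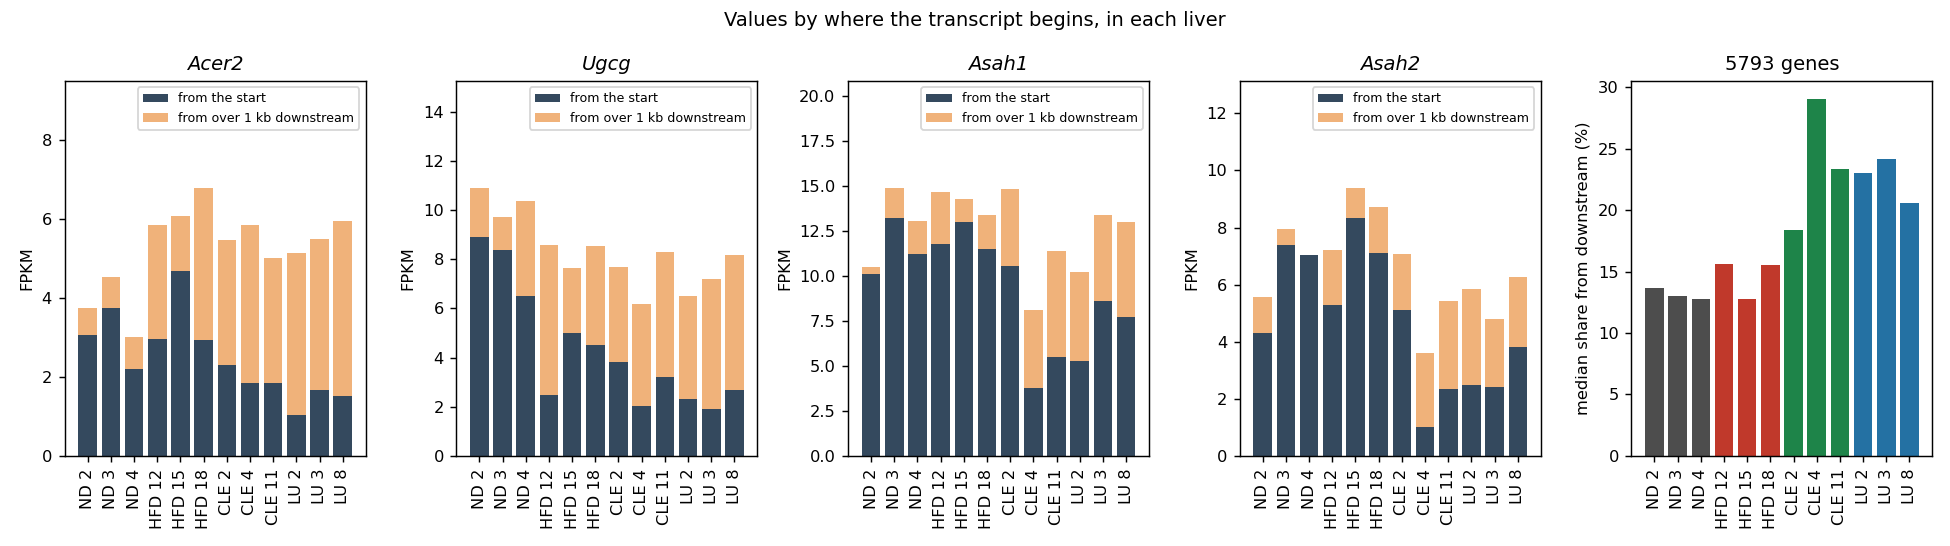
FPKM of Acer2, Ugcg, Asah1 and Asah2 in each liver, with the median downstream share (percent) of 5793 genes in each liver at the right. Light parts are transcripts that begin over 1 kb downstream of the start of the gene's most abundant known transcript. Dark parts are all other transcripts of the gene. The dark part of Acer2 overlaps between ND and HFD livers, and the median share is 18.4% to 29.1% in the CLE livers.

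Acer3, an alkaline ceramidase of the endoplasmic reticulum and Golgi that prefers unsaturated ceramides, had 3.46, 3.78 and 3.09 FPKM in ND mice and 4.69, 5.83 and 5.21 in HFD mice. Those groups did not overlap, and the log2 fold change was 0.49 ± 0.17 (adjusted p = 0.088 in limma). CLE mice had 5.48, 3.67 and 3.87 FPKM and LU mice 3.34, 3.11 and 5.36. In each supplement group 1 mouse was within the HFD range and the others were below it, with differences from HFD of -0.24 (adjusted p = 0.38) and -0.36 (adjusted p = 0.26). No transcript of Acer3 counted as downstream by the rule used for Acer2, which is set from the most abundant known transcript. For Acer3 that transcript begins at 98309538, inside the gene, whose annotated start is at 98321208 (minus strand).

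Asah1, the acid ceramidase of the lysosome, had 10.5, 14.9 and 13.0 FPKM in ND mice and 14.7, 14.3 and 13.4 in HFD mice. CLE mice had 14.8, 8.13 and 11.4 FPKM and LU mice 10.2, 13.4 and 13.0. All groups overlapped. No difference passed, with log2 fold changes of 0.14 between HFD and ND (adjusted p = 0.68), -0.31 between CLE and HFD (0.27) and -0.20 between LU and HFD (0.55).

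Asah2, the neutral ceramidase of the plasma membrane, had 5.58, 7.96 and 7.03 FPKM in ND mice and 7.20, 9.38 and 8.72 in HFD mice. CLE mice had 7.08, 3.61 and 5.43 FPKM and LU mice 5.83, 4.79 and 6.28, and every mouse of both groups was below every HFD mouse. The differences from HFD were -0.60 ± 0.19 in CLE (adjusted p = 0.071) and -0.51 ± 0.19 in LU (adjusted p = 0.17), and neither passed. Without CLE 2 the CLE difference was -0.79 and passed (adjusted p = 0.018). Over all fits that leave out 1 mouse, the CLE difference ranged from -0.79 to -0.38. Asah2 transcripts not counted as downstream averaged 6.24 FPKM in ND, 6.92 in HFD, 2.83 in CLE and 2.90 in LU. The downstream part averaged 0.62, 1.51, 2.55 and 2.74 FPKM in the same order. The most abundant Asah2 transcript, which sets this division, begins at 32061469, inside the gene, whose annotated start is at 32108211 (minus strand). Asah1 showed the same split, at 11.5, 12.1, 6.62 and 7.21 FPKM from the start and 1.30, 2.01, 4.85 and 5.02 from downstream.

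Smpd1 encodes acid sphingomyelinase, which releases ceramide from sphingomyelin in the lysosome. It was the member that fell between CLE and HFD livers. Its single known transcript spans chr7:105554360-105558389 (plus strand), so its value is not divided among transcripts. With no other transcript listed, a downstream start could not be seen, and the part of such starts in its value was not tested. ND mice had 14.2, 15.9 and 13.4 FPKM, and HFD mice had 16.4, 17.4 and 17.5. CLE mice had 13.5, 10.5 and 11.7 FPKM and LU mice 12.7, 12.9 and 14.02. In the deposited values every HFD liver was above all 9 other livers, and LU livers overlapped both ND and CLE livers. CLE was below HFD by a log2 fold change of -0.49 ± 0.11 (adjusted p = 0.033 in limma), a level 0.71 times that of HFD on this scale. LU was below HFD by -0.35 (adjusted p = 0.13), HFD was above ND by 0.22 (adjusted p = 0.21), and the CLE and LU difference was -0.15 (95% interval -0.38 to 0.09). The CLE call rests on small margins, since it was lost without CLE 4, CLE 11, HFD 12, HFD 15 or HFD 18 (adjusted p = 0.11, 0.056, 0.069, 0.14 and 0.073). It was kept with the correction for GC content and transcript length and with each of the scalings tried.

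Smpd2 encodes a neutral sphingomyelinase of intracellular membranes. In the deposited values it was, like Smpd1, higher in every HFD liver than in every ND liver. Unlike Smpd1 it was higher again in every CLE and LU liver. It lies at chr10:41485642-41490369 (minus strand). ND mice had 14.3, 14.04 and 13.6 FPKM and HFD mice 18.9, 17.2 and 21.0. CLE mice had 24.1, 38.9 and 21.7 FPKM and LU mice 26.3, 23.4 and 24.9. The ND, HFD and supplement groups formed a staircase with no overlap between steps, and CLE and LU overlapped. CLE was above ND by a log2 fold change of 0.92 ± 0.17 (adjusted p = 0.0044) and LU by 0.79 ± 0.17 (adjusted p = 0.013), and both calls held whichever mouse was left out. The single steps did not pass, with 0.42 in HFD against ND (adjusted p = 0.13), 0.50 in CLE against HFD (0.081) and 0.37 in LU against HFD (0.24). CLE 4 raised the mean of its group, and without it the CLE difference from HFD was 0.26. With HFD and ND mice fitted alone, Smpd2 passed at 0.42 (adjusted p = 0.027). The HFD difference from ND was smaller and did not pass when libraries were scaled by median-of-ratios (0.26, adjusted p = 0.36) or by quantiles (0.30, 0.30). The same held under the GC content and length correction (0.26, 0.25) and under a clock gene covariate (0.16, 0.71). For known transcripts alone it was 0.44 (0.14).

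Smpd2 shares 905 exon bases with Mical1 on the opposite strand, and the kit is not stated to keep strand, so reads in that stretch cannot be told apart. Mical1 averaged 1.02 FPKM over the 12 livers. It had 0.32, 0.56 and 0.80 FPKM in ND mice, 0.56, 0.85 and 0.80 in HFD, 1.399, 2.15 and 1.01 in CLE and 0.68, 2.09 and 1.03 in LU. Like Smpd2 it was highest in CLE 4. Among the Smpd2 transcripts, only ENSMUST00000126833 extends into the span of Mical1. That transcript averaged 0.20 FPKM, 0.94% of the Smpd2 sum, and had 0.59 FPKM in CLE 4. The part of Mical1 reads in the Smpd2 values was not tested. The most abundant Smpd2 transcript, 62.3% of the sum, was higher than in ND by 0.61 in CLE (adjusted p = 0.013) and by 0.72 in LU (adjusted p = 0.010).

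The ratio of Smpd2 to Smpd1 was 0.97 ± 0.08 in ND livers, 1.12 ± 0.11 in HFD, 2.45 ± 1.096 in CLE and 1.88 ± 0.16 in LU. Its lowest value in a CLE or LU liver, 1.77, was above its highest value in an ND or HFD liver, 1.20. In CLE 4 the ratio was 3.72, the highest of all.

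**Figure D4:**
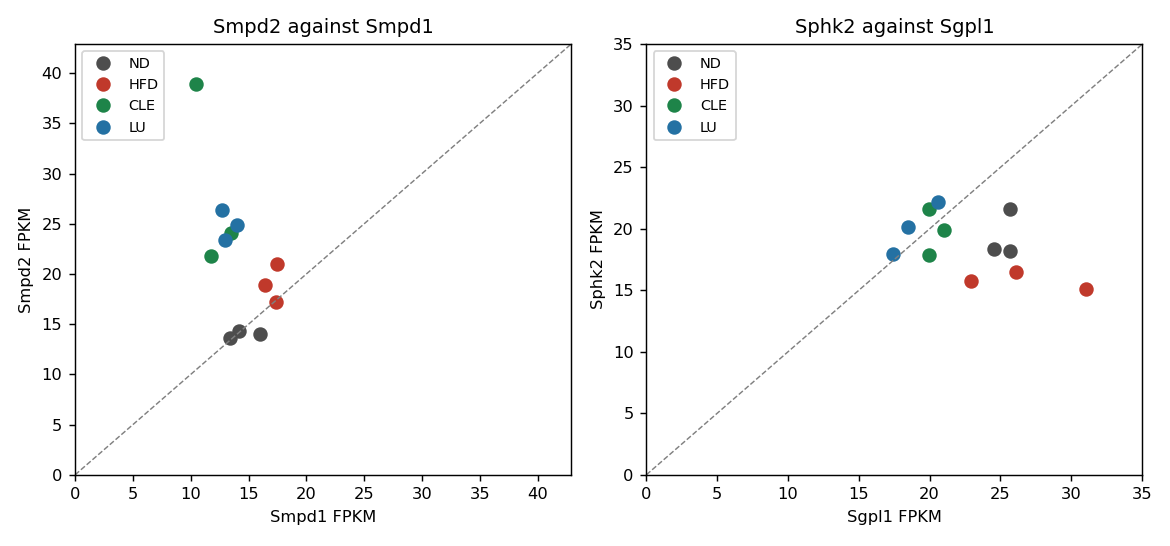
Smpd2 against Smpd1 (left) and Sphk2 against Sgpl1 (right), both axes in FPKM, 1 point per mouse colored by group; the dashed line marks equal levels. CLE and LU mice lie furthest above the line at the left (ratio 1.77 to 3.72). At the right the LU mice (ratio 1.03 to 1.09) and CLE 4 (1.08) lie above it.

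Ugcg encodes glucosylceramide synthase, which commits ceramide to the glycosphingolipids. It lies at chr4:59189257-59222833 (plus strand). ND mice had 10.9, 9.71 and 10.4 FPKM and HFD mice 8.60, 7.66 and 8.56. CLE mice had 7.70, 6.20 and 8.29 FPKM and LU mice 6.51, 7.21 and 8.17. Every ND liver was above every other liver, and the HFD, CLE and LU groups overlapped. Ugcg was lower than in ND by -0.44 ± 0.12 in CLE (adjusted p = 0.021) and by -0.45 ± 0.12 in LU (adjusted p = 0.028), while HFD missed the threshold at -0.29 (adjusted p = 0.14). With median-of-ratios scaling HFD passed too, at -0.44 (adjusted p = 0.039). The calls were lost for CLE without CLE 4, ND 2 or ND 4 (adjusted p = 0.074, 0.063 and 0.060) and for LU without LU 2, LU 3, ND 2 or ND 4 (0.089, 0.075, 0.086 and 0.081).

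The difference of Ugcg from ND was larger for transcripts from its annotated start. These transcripts had 8.90, 8.39 and 6.50 FPKM in ND mice, 2.50, 5.01 and 4.50 in HFD, 3.83, 2.02 and 3.22 in CLE, and 2.32, 1.89 and 2.68 in LU. Downstream transcripts averaged 2.40 FPKM in ND, 4.27 in HFD, 4.37 in CLE and 5.00 in LU. With known transcripts alone the differences from ND were -0.80 in HFD (adjusted p = 0.064), -1.08 in CLE (adjusted p = 0.012) and -1.42 in LU (adjusted p = 0.0060). The direction was thus the same by either reading, and the size was not.

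Sphk1, the inducible sphingosine kinase of the cytoplasm, had a mean of 0.264 FPKM over the 12 livers and was below the level required for testing. Its values ran from 0.017 to 0.35 FPKM in ND livers, 0.10 to 0.37 in HFD, 0.13 to 0.48 in CLE and 0.065 to 0.50 in LU, and all groups overlapped. With no filter on low values its smallest adjusted p was 0.58. It shares 192 exon bases with the antisense gene Gm29292, so even these low values are uncertain.

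Sphk2, the kinase of the nucleus, mitochondria and other membranes, carried nearly all of the sphingosine kinase level. ND mice had 18.2, 18.3 and 21.6 FPKM and HFD mice 15.8, 15.1 and 16.5. CLE mice had 19.9, 21.6 and 17.9 FPKM and LU mice 20.2, 17.97 and 22.2. Every HFD liver was below all 9 other livers, and the other groups overlapped. The log2 fold changes were -0.28 in HFD against ND (adjusted p = 0.13), 0.31 in CLE against HFD (0.10) and 0.33 in LU against HFD (0.15), and none passed. The HFD difference from ND passed with median-of-ratios scaling (-0.43, adjusted p = 0.030), with quantile normalization (-0.41, 0.039) and with the GC content and length correction (-0.39, 0.034). The same correction lowered the CLE difference from HFD to 0.072 (adjusted p = 0.69) and the LU difference to 0.19 (0.36).

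The Sphk2 sum joins transcripts whose levels differed among the groups in opposite directions. The gene, at chr7:45709467-45718002 on the minus strand, shares 539 exon bases at its 3′ end with Dbp, a transcription factor of the circadian clock, and 373 exon bases with Rpl18, both on the opposite strand. Of its 5 transcripts, 3 reach into Dbp and 2 end before it. The reaching transcripts had 3.31, 8.73 and 2.52 FPKM in ND mice, 9.82, 4.69 and 9.69 in HFD, 13.2, 17.0 and 10.5 in CLE and 17.1, 15.2 and 10.5 in LU. The others had 14.9, 9.59 and 19.1 FPKM in ND mice, 5.93, 10.4 and 6.79 in HFD, 6.73, 4.59 and 7.36 in CLE and 3.06, 2.75 and 11.7 in LU. Dbp itself had 3.01, 21.4 and 2.06 FPKM in ND mice, 23.1, 6.94 and 29.5 in HFD, 37.7, 43.9 and 26.0 in CLE and 50.3, 38.2 and 26.3 in LU. The ND mouse with the most Dbp (ND 3) had the most of the reaching transcripts in its group, the HFD mouse with the least (HFD 15) had the least, and whether Dbp reads were assigned to Sphk2 was not tested. Rpl18 had 210 to 250 FPKM in ND mice, 187 to 269 in HFD, 250 to 405 in CLE and 261 to 286 in LU. The 3 Sphk2 transcripts that extend into its span had 6.88 to 8.72 FPKM in ND mice and 7.54 to 9.03 in HFD. They had 10.8 to 13.5 FPKM in CLE mice and 10.7 to 14.2 in LU. Whether Rpl18 reads were assigned to Sphk2 was not tested. With known transcripts alone, the CLE and LU differences of Sphk2 from HFD turned to -0.19 each (adjusted p = 0.68 and 0.73).

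**Figure D5:**
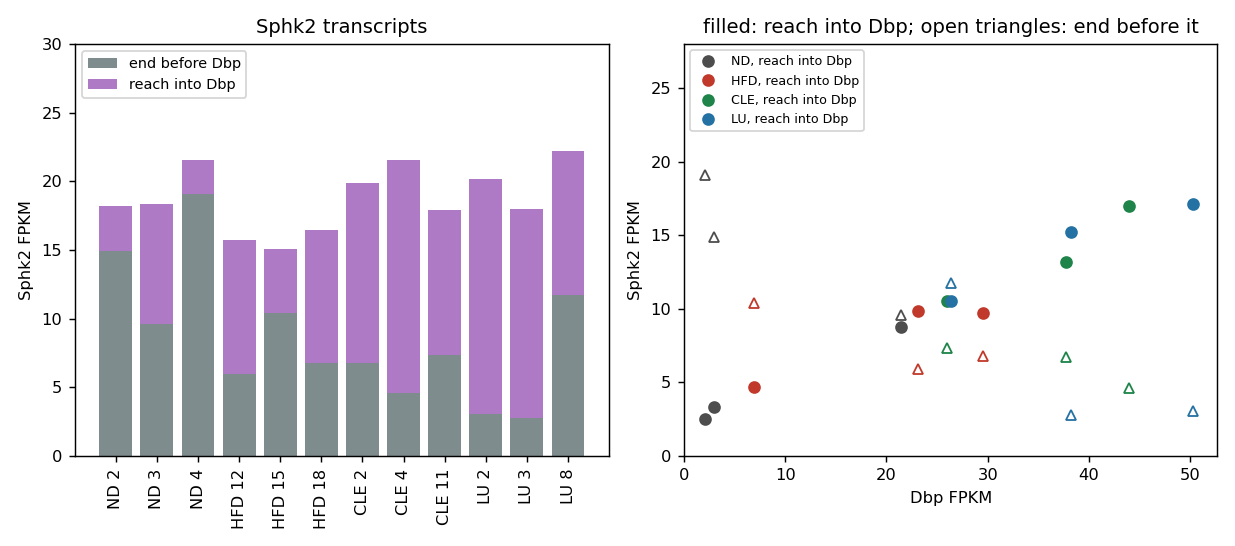
Sphk2 FPKM in each liver, split into transcripts that reach into Dbp and transcripts that end before it (left), and both parts against Dbp FPKM (right, 1 filled circle and 1 open triangle per mouse). The reaching part is 2.52 to 3.31 FPKM in the ND mice with 2.06 and 3.01 FPKM of Dbp and 17.1 in the mouse with 50.3.

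Sgpl1, the lyase that irreversibly splits sphingosine 1-phosphate, lies at chr10:61098642-61147703 (minus strand). ND mice had 25.7, 24.6 and 25.7 FPKM and HFD mice 22.9, 31.0 and 26.1. CLE mice had 21.0, 19.95 and 19.99 FPKM and LU mice 18.5, 17.4 and 20.6. Every CLE and LU liver was below every ND and HFD liver, while ND and HFD overlapped. Sgpl1 was lower in LU than in ND by -0.41 ± 0.11 (adjusted p = 0.031), and this call was lost without LU 2, LU 3, ND 2, ND 3 or ND 4 (adjusted p = 0.077, 0.10, 0.084, 0.061 and 0.091). The differences from HFD, -0.37 in CLE (adjusted p = 0.064) and -0.47 in LU (adjusted p = 0.068), and from ND in CLE, -0.30 (adjusted p = 0.062), missed the threshold. HFD and ND differed by 0.06 (95% interval -0.18 to 0.31). Its most abundant transcript, 54.8% of the sum, had a log2 fold change of 0.14 in LU against ND (adjusted p = 0.59).

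The ratio of Sphk2 to Sgpl1 was 0.76 ± 0.07 in ND livers, 0.60 ± 0.10 in HFD, 0.97 ± 0.10 in CLE and 1.07 ± 0.03 in LU. All 6 values in CLE and LU livers, from 0.90 to 1.09, were above all 6 in ND and HFD livers, from 0.49 to 0.84. This ratio includes the Sphk2 transcripts that reach into Dbp or Rpl18.

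Several measures of the whole libraries moved with the groups. Deviations from the mean of all livers correlated with GC content, over 11437 genes, at Spearman's rho of -0.37 to -0.14 in ND and HFD livers and 0.16 to 0.48 in CLE and LU livers, highest in CLE 4. Among the members, Smpd2 (56.1% GC) and Sphk2 (60.3%) are GC-rich and were higher in CLE and LU livers than in HFD, while Smpd1 (55.7%) is GC-rich and was lower, and Asah2 (41.9%) is poor in GC and was lower. The GC relation and the supplements cannot be told apart by group alone, and with the correction for GC content and length Smpd1 remained lower in CLE than in HFD (-0.63, adjusted p = 0.013) and 6 members in place of 3 passed between CLE and ND. Over all genes, 2147 in place of 3095 passed between CLE and ND. The same correction made the Smpd2 differences smaller, from 0.92 to 0.54 in CLE against ND (adjusted p = 0.020), from 0.79 to 0.48 in LU against ND (0.044) and from 0.50 to 0.29 in CLE against HFD (0.20). It also moved Asah2 in CLE against HFD from -0.60 to -0.39 (0.13). A score of 11 clock genes was -1.65 to -0.35 in ND, -0.66 to 0.20 in HFD, 0.38 to 1.17 in CLE and 0.21 to 0.93 in LU. With this score as a covariate, no member passed in any comparison. Over all genes, 492 then passed in HFD against ND, 13 in CLE against HFD and 14 in LU against HFD. Against ND, 7 passed in CLE and 13 in LU, and 1 passed in CLE against LU. Every CLE and LU liver scored above every ND and HFD liver, so the score and the supplements cannot be told apart by group alone. Under the covariate, the difference was 0.45 for Acer2 in HFD against ND (adjusted p = 0.13) and -0.48 for Smpd1 in CLE against HFD (adjusted p = 0.22). The called differences from ND moved toward 0 under this covariate, with adjusted p from 0.65 to 0.92 in CLE and LU. Smpd2 went from 0.92 to 0.45 in CLE and from 0.79 to 0.33 in LU against ND, Ugcg from -0.44 to -0.20 and from -0.45 to -0.22, and Acer2 from 0.45 to 0.14 and from 0.47 to 0.17. Sgpl1 in LU against ND went from -0.41 to -0.17. With median-of-ratios scaling the median log2 fold change of all genes between HFD and ND livers was -0.01 in place of 0.12, and 55.0% in place of 82.4% of the genes that passed were higher in HFD. The time of day at which each liver was taken is not given in the sources used here.

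Markers of other liver cells also moved. The sum over 9 Kupffer cell and macrophage markers was 142 to 168 FPKM in ND livers, 222 to 342 in HFD, 190 to 296 in CLE and 158 to 289 in LU. Of the 9, 4 were higher in HFD than in ND at an adjusted p of 0.05, against 12.1% of all genes that passed. Marco alone of the 9 had a lower mean in HFD (2.70 FPKM) than in ND (5.36 FPKM). The sum over 5 stellate cell markers was 63.3 to 89.97 FPKM in ND, 114 to 142 in HFD, 116 to 180 in CLE and 110 to 152 in LU. Of the 5, 4 were higher in HFD than in ND, against the same 12.1% of all genes. All tested members except Ugcg and Sphk2 also had higher means in HFD than in ND, and the part of these cells in the members' values was not tested. The sum over hepatocyte markers was 15619 to 38895 FPKM, and albumin was listed at 0 in 11 of 12 livers, so a 0 in these values can be a failed estimate. Adipocyte marker sums were at most 1.35 FPKM, and leptin was listed at 0 in 9 livers.

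Upstream of these routes stands ceramide synthesis. Of 11 of its genes tested, 3 were higher and none was lower in HFD than in ND livers, where 12.1% of all genes passed, with a median log2 fold change of 0.24 against 0.12 over all genes. They were Cers6, a ceramide synthase of long-chain ceramide, at 1.28 (adjusted p = 1.9e-04), Sptlc2, a subunit of the rate-limiting serine palmitoyltransferase, at 0.67 (0.014), and Cers2, the synthase of very-long-chain ceramide, at 0.45 (0.030). Cers6 averaged 2.21 ± 0.51 FPKM in ND, 6.77 ± 0.49 in HFD, 5.13 ± 1.05 in CLE and 4.88 ± 0.49 in LU livers. None of the 11 passed between CLE or LU and HFD livers in limma.

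Other genes turn ceramide into sphingomyelin and related products or handle those products. Of 9 tested, 2 were higher in HFD than in ND (12.1% of all genes passed), and 4 were lower in CLE than in HFD (6% of all genes passed), with a median there of -0.55 against 0.02 over all genes. Smpdl3a, an acid sphingomyelinase-like phosphodiesterase, was higher in HFD than in ND by 0.48 (adjusted p = 0.027) and lower in CLE than in HFD by -0.56 (0.033). Sgms1, sphingomyelin synthase of the Golgi, was higher in HFD than in ND by 0.86 (0.018) and lower in CLE than in HFD by -0.78 (0.045). Col4a3bp, the ceramide transfer protein, and Samd8, a ceramide phosphoethanolamine synthase, were lower in CLE by -0.55 and -0.48 (both adjusted p = 0.037). None of the 9 passed between LU and HFD livers.

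Of 13 tested genes of glycosphingolipid synthesis and breakdown, 4 were higher in HFD than in ND livers and none was lower, with a median of 0.35 against 0.12 over all genes, 12.1% of which passed. They included Arsa, the lysosomal sulfatase of sulfatide, a lipid made from galactosylceramide, at 0.82 (adjusted p = 0.0044), and B4galt5, lactosylceramide synthase, at 0.81 (0.0065). Between CLE and HFD livers 2 of the 13 were lower, against 6% of all genes that passed, among them B4galt5 at -0.65 (adjusted p = 0.039). None of the 13 passed between LU and HFD livers.

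Beyond the lyase, 2 of 12 tested genes of sphingosine 1-phosphate removal, transport and reception were higher in HFD than in ND livers and 1 was lower, against 12.1% of all genes that passed. The median was 0.26 against 0.12 over all genes. The lower gene was Apom, apolipoprotein M, at 111 ± 19.0 FPKM in ND, 34.5 ± 5.31 in HFD, 37.6 ± 8.43 in CLE and 51.9 ± 8.26 in LU. Its log2 fold change in HFD against ND was -1.66 ± 0.19 (adjusted p = 1.6e-04), a larger change than that of any of the 10 enzymes. The receptors S1pr5 and S1pr1 were higher by 0.68 and 0.78 (adjusted p = 0.0093 and 0.012). Between CLE and HFD livers 1 of the 12 passed, the exporter Mfsd2b, at -0.48 (adjusted p = 0.048), and between LU and HFD livers none did.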

How the data were processed

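RNA of 12 mouse livers was sequenced by the authors from mRNA libraries as paired reads of 100 bases. The submitters' processing notes name CASAVA 1.8.2, Bowtie2 2.2.3, TopHat2 2.0.12 and Cufflinks 2.2.1. The authors deposited FPKM per transcript, known and assembled, from an assembly of 30 samples. The methods name DEGES and edgeR normalization factors, and whether the deposited FPKM include them is not stated. These are estimates shared out among overlapping transcripts, so depth is unknown and no counting interval can be given. The genome build is not given in the sources used here, and 85.5% of known transcripts have the start and end of GENCODE M21 on GRCm38, which was used for coordinates.

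FPKM were summed over 143450 transcripts of 22068 genes by the gene name in the table. Left out were 6316 transcripts with no name and 2444 whose name occurs on several chromosomes. No value column was without a sample (0). Groups were taken from the sample labels, which abbreviate CLE differently. Testing used R 4.3.3 and limma 3.58.1 with the variance trend on log2(FPKM + 1) in all 12 mice (12.8 degrees of freedom), for the 11482 genes whose mean reached 0.5 FPKM, at a two-sided adjusted p of 0.05. The exact permutation test among the 4 groups used the same values. On data simulated for HFD against ND with 11482 genes, the fit recovered 193 of 200 genes given a log2 change of 1.5, 175 of 200 given 1 and 15 of 200 given 0.5, and called 0 genes when none was changed.

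All 10 members were named, and from each of 4 pathway lists up to 3 genes with the smallest adjusted p among those that passed in a comparison. A gene that this rule selects is not reported here. Lists of cell type markers and lysosomal genes were given as sums and counts. Dbp, Mical1, Rpl18, Gm29292, albumin and leptin were named for their overlap or their 0 values, after these were seen. The members and lists were chosen with earlier results of these data known. Alternatives were a pseudocount of 0.1, other filters on low values, median-of-ratios scaling, quantile normalization, correction for GC content and length, other choices of transcripts, a clock gene score as a covariate, the mouse number as a block, no variance trend, the 2 groups alone, and each mouse left out. Sums by GENCODE M21 gene were added after seeing the data. Promoters came from RefSeq on GRCm38.p6, which matched 9 of the 10 members.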

Additional observations from a re-analysis of the deposited data

How the results depend on the processing

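The number of members that passed between HFD and ND livers was 1, and became 0 with a covariate for clock genes or with known transcripts only, 2 with quantile normalization, and 3 with median-of-ratios scaling, with GC content and length correction or with the 2 groups compared alone. Between CLE and HFD livers it was 1, and became 0 with the clock covariate, with no filter on low values, with the 2 groups alone or with only the transcript of highest mean (the top transcript). Between CLE and ND livers it was 3, and became 6 with the GC content and length correction, 1 with the 2 groups alone and 0 with the clock covariate. Between LU and ND livers it was 4, and became 0 with the clock covariate and 2 with the top transcript. Among the 4 groups it was 0 by the exact test, and became 2 with median-of-ratios scaling or quantile normalization and 1 with the GC content and length correction.

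Over the fits that leave out 1 mouse, the number ranged from 1 to 2 in HFD against ND, 0 to 3 in CLE against HFD, 0 to 1 in LU against HFD, 1 to 5 in CLE against ND and 1 to 4 in LU against ND. The replicate block, a fit of ND, CLE and LU mice with the mouse number as a block, left 0 members in CLE and in LU against ND. Mice with the same number deviated from their group means with correlations of -0.26 to 0.18 across genes, so the numbers were not taken to pair the mice, and HFD mice share no number with others.

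Directions turned as follows, all on the log2 scale. In HFD against ND, Sgpl1 turned to -0.052 with GC content and length correction, -0.092 with median-of-ratios scaling and -0.053 with quantile normalization, and ranged from -0.048 (without HFD 15) to 0.16 over the fits without a mouse. Asah1 turned to -0.0086 with median-of-ratios scaling, and by their top transcript Acer2 turned to -0.0037 and Sphk2 to 0.85. With GC content and length correction, Acer3 and Ugcg turned to 0.020 and 0.027 in CLE against HFD, and Ugcg to 0.022 in LU against HFD. With known transcripts only, Sphk2 turned to -0.19 in both CLE and LU against HFD, and Acer2 to -0.43 in CLE and -0.79 in LU against ND. By the top transcript, Acer2 turned to -0.63 in CLE and -0.77 in LU against ND, and Sgpl1 to 0.14 in LU against ND. The causes were not tested.

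Over all genes, the number that passed ranged, over alternatives other than leaving out a mouse, from 492 to 1833 (as reported, 1393) in HFD against ND and from 13 to 1087 (689) in CLE against HFD, and without a mouse from 654 to 1656 and from 27 to 2171. Without a mouse it ranged from 11 to 537 (as reported, 118) in LU against HFD, 1593 to 3654 (3095) in CLE against ND and 639 to 2488 (1725) in LU against ND. With the clock covariate it was 14, 7 and 13 there, and with the replicate block 337 and 19 in CLE and LU against ND. The shares of all genes given beside the members' counts move with these numbers. With 3 mice a group, changes as small as those of most members were seldom recovered on simulated data. The simulation changed 200 genes, fewer than the 1393 that passed in HFD against ND, so recovery in the real data can differ. A pseudocount of 0.1, no variance trend, a mean of at least 5 FPKM, leaving out antisense and intronic transcripts, and sums by GENCODE M21 gene moved no count of members by more than 1.5 times.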

Other observations

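Acid ceramidase and acid sphingomyelinase work in the lysosome, and 17 other lysosomal genes were followed beside them. In HFD livers 5 of the 17 were higher than in ND and none was lower (12.1% of all genes passed), with a median log2 fold change of 0.27 against 0.12 over all genes. Between CLE and HFD livers 3 were lower and 1 was higher (6% of all genes passed), with a median of -0.31 against 0.02 over all genes, and between LU and HFD livers none passed in limma, with a median of -0.22 against -0.02. Smpd1 had differences of 0.22, -0.49 and -0.35 in the same 3 comparisons, which share the HFD mice. The difference of 0.22 fell to 0.073 with median-of-ratios scaling.

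Against ND livers, glycosphingolipid genes that passed were Arsa, at 1.05 in CLE and 0.99 in LU (adjusted p = 0.0013 and 0.0027), Gba2, the non-lysosomal glucosylceramidase that returns ceramide, at 0.88 in CLE (0.0051), and Neu1, a sialidase, at 0.47 in CLE and 0.50 in LU (0.013 and 0.016). Hexa, which acts in ganglioside breakdown, was higher by 0.55 in LU (0.031). Of the 13 genes of this list tested, 3 passed as higher in CLE, and 4 as higher and 1 as lower in LU, against 27% and 15% of all genes that passed, so the CLE count is no larger than that over all genes. Apom was lower than in ND by -1.56 in CLE and -1.09 in LU (adjusted p = 6.9e-04 and 0.0049). The exporter Spns2 was higher than in ND by 0.77 in CLE and 0.65 in LU (0.011 and 0.032), and the exporter Mfsd2b was lower by -0.55 and -0.60 (0.011 and 0.013).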
